A study of Homo sapiens with 18 samples.

Results

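FKBP5 and 9 further genes of the chaperone machinery that holds steroid receptors were followed in LNCaP prostate carcinoma cells. FKBP5 and FKBP4 encode FK506-binding co-chaperones, HSP90AA1 and HSP90AB1 the cytosolic HSP90 chaperones, PTGES3 the co-chaperone p23, STIP1 the adaptor HOP, HSPA8 the constitutive HSP70 chaperone, DNAJB1 its J-domain partner HSP40, BAG1 a nucleotide exchange factor and STUB1 the ubiquitin ligase CHIP. The members were all probe sets that carry one of these gene symbols. By the symbol as deposited they were 19 probe sets of 7 genes. HSP90AA1, HSP90AB1 and PTGES3 stand under older names in the annotation, so bringing symbols up to date gave 28 probe sets of all 10 genes, among 54613 on the array.

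LNCaP cells, an established line that responds to androgen, come from a nodal metastasis. The culture medium held 5% hormone-depleted serum in every group, and cells were treated for 16 h with one of 6 regimens. These were DMSO (vehicle), 100 nM DHT (dihydrotestosterone, a natural androgen), 1 µM or 10 µM enzalutamide (an antiandrogen), and 100 nM DHT together with 1 µM or 10 µM enzalutamide. Each group had 3 arrays, 18 in all, of this 1 cell line. Whether the arrays of a group came from separate cultures is not stated, and the p-values therefore cover only the scatter among these arrays, which could be technical.

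Steroid receptors without ligand are held in a ligand-binding state by HSP90. HSP70 with a J-domain partner loads the receptor, HOP bridges it to HSP90, and p23 and an FK506-binding protein join the mature complex. FKBP5 and FKBP4 compete for the same place on HSP90: FKBP4 helps receptors move to the nucleus, whereas FKBP5 lowers the hormone binding of the glucocorticoid receptor. FKBP5 is itself a known target gene of androgens and glucocorticoids, acting through enhancers within its introns. The HSP genes are known for heat shock elements, which heat shock factor HSF1 binds, in their promoters.

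Promoter sequences are shown for the member that responded most to DHT and for one start of each HSP90 gene, so that the letters near their start sites can be compared. The RefSeq table of assembly GRCh38.p14 held 15 windows of 300 bases, from 250 bases before to 50 after a start site, for 8 of the 10 genes, and none for FKBP4 and STUB1. Capitals mark a core motif of steroid response elements (AGAACA or its complement TGTTCT) or a heat shock element core (GAANNTTC or TTCNNGAA), and each line reads 5′ to 3′ on the gene's strand.
FKBP5, first start, chr6:35728534-35728833, minus strand: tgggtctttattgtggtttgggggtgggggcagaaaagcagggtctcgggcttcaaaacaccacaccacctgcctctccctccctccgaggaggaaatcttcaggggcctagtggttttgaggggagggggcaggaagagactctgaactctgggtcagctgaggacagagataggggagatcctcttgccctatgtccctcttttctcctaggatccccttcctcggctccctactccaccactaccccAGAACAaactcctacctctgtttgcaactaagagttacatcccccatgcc
FKBP5, second start, chr6:35688866-35689165, minus strand: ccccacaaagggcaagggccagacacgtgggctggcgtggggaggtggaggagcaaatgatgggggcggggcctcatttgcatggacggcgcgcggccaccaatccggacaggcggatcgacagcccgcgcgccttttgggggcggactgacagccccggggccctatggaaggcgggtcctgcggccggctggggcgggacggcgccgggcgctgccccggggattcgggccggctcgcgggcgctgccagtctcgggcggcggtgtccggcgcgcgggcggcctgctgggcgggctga
HSP90AA1, chr14:102086995-102087294, minus strand: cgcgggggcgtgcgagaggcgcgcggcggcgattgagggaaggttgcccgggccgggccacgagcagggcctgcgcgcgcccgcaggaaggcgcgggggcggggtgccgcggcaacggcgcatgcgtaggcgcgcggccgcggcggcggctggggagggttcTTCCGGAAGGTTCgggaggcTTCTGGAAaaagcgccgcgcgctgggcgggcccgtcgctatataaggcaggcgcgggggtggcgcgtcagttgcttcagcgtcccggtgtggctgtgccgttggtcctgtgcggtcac
HSP90AB1, chr6:44247693-44247992, plus strand: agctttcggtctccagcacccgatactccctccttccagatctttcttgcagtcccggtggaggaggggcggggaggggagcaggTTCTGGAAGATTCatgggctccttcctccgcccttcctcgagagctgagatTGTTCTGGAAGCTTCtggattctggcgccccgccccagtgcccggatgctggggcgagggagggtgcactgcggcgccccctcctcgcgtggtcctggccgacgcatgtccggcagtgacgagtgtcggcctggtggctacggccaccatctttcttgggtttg

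The first FKBP5 window held the steroid motif at position 1 from the start site, and the second held neither motif. This motif on either strand was in 14.79% of all 35116 windows of the table. Among the members' windows it was in 1 of FKBP5 and 1 of HSP90AB1, where it overlaps a heat shock core. A heat shock core was in 6 of the 15 windows, those of HSP90AA1, HSP90AB1, STIP1, HSPA8 and 2 of DNAJB1, and in 13.49% of all windows. In HSP90AA1 the cores began at positions -88, -83 and -68 from the start site. The other window of HSP90AA1 and the other 2 of HSP90AB1, not printed, held neither motif. These matches describe letters in these windows, and binding was not measured.

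Levels are MAS5 signals on a log2 scale, scaled alike on all arrays, and one probe set's level is not comparable with another's. Of the 28 probe sets, 26 had a mean above the brightness limit of 6.98, the median of all probe sets, and both below it belong to FKBP5. Each gene was tested on its probe set of highest mean with limma over 12756 genes, and adjusted p-values are Benjamini-Hochberg values over all of them. Probe sets whose name ends in _x_at may also bind other transcripts, which touches HSPA8 and STUB1. All 8 markers of luminal prostate epithelium were above the limit. Of 3 basal markers 2 were, of 3 fibroblast markers 2, and of 2 leukocyte markers 0.

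On 2 arrays, called the high-ratio arrays here, the 3′ to 5′ ratio of ACTB signal, a common sign of RNA integrity, was 4.50 (DHT replicate 2) and 6.04 (enzalutamide 1 µM replicate 2). On the other arrays it lay between 1.42 and 1.80. Several members stood apart on these arrays, and values with both left out stand beside a number of the results.

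FKBP5 rose about 20-fold with DHT, and enzalutamide lowered it beside DHT in a dose-ordered way. On probe set 224840_at the vehicle arrays read 9.49, 9.38 and 9.53, and the DHT arrays 13.83, 13.78 and 13.75. With DHT and 1 µM enzalutamide they read 12.28, 11.56 and 11.28, and with DHT and 10 µM 10.27, 10.18 and 10.21. These 4 groups did not overlap. The drug alone left the arrays at 9.67, 9.68 and 9.59 (1 µM) and at 9.53, 9.78 and 9.60 (10 µM), close to vehicle.

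DHT raised FKBP5 by 4.32 ± 0.16 on the log2 scale (SE, n = 3 arrays a group, 20.0-fold, adjusted p = 2.04e-12). Beside DHT, FKBP5 fell by 2.08 ± 0.16 with 1 µM enzalutamide (adjusted p = 1.78e-07) and by 3.57 ± 0.16 with 10 µM (adjusted p = 8.57e-11). The step from 1 to 10 µM beside DHT lowered it by a further 1.49 (log2 change -1.49, adjusted p = 0.00031). FKBP5 was thus 1 of 9 genes called for this dose step among 12756.

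Measured against the drug alone, DHT raised FKBP5 by 2.06 ± 0.16 beside 1 µM enzalutamide (adjusted p = 7.31e-08). This was 47.7 ± 4.1% (SE) of the log2 change without the drug, and the test of that difference gave a log2 interaction of -2.26 ± 0.23 (adjusted p = 2.02e-05). Beside 10 µM the DHT change was 0.58 ± 0.16, which did not pass the test (adjusted p = 0.0582, unadjusted p = 0.00187), although the 3 arrays with DHT lay above the 3 without. This change was 13.5 ± 3.8% of that without the drug, and the interaction was -3.74 ± 0.23 (adjusted p = 2.44e-08). The change beside 10 µM was again 0.58 with both high-ratio arrays left out, and then passed the test (adjusted p = 0.0405).

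Ordered by mean level, FKBP5 was lowest in vehicle (9.47 ± 0.08, SD), followed by 10 µM enzalutamide (9.64 ± 0.13), 1 µM enzalutamide (9.65 ± 0.05), DHT with 10 µM (10.22 ± 0.05), DHT with 1 µM (11.71 ± 0.51) and DHT (13.79 ± 0.04). The first 3 groups did not differ beyond the test: the drug alone changed FKBP5 by 0.18 (95% interval -0.16 to 0.52, adjusted p = 0.52) at 1 µM and by 0.17 (-0.17 to 0.51, adjusted p = 0.662) at 10 µM. The widest spread was in DHT with 1 µM, where replicate 1 stood above the other 2 arrays. Leaving that array out gave a change of -2.37 with 1 µM beside DHT.

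**Figure D1:**
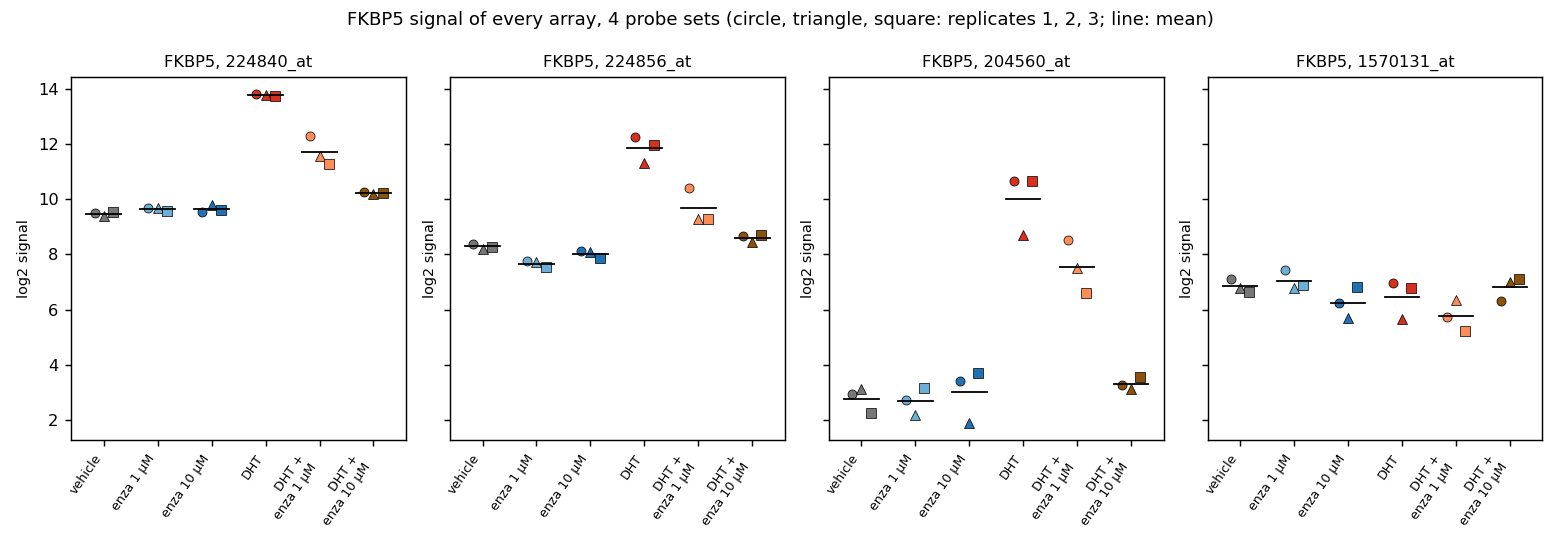
Log2 signal of the 4 FKBP5 probe sets on every array, with groups on the x axis, replicates 1, 2 and 3 as circle, triangle and square, and group means as lines. On 224840_at, 224856_at and 204560_at DHT stands highest and both combinations lie below it, whereas 1570131_at stays between 5.24 and 7.42 in all groups.

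The other FKBP5 probe sets can be set beside this one. On 224856_at the vehicle arrays read 8.39, 8.21 and 8.27 and the DHT arrays 12.26, 11.32 and 11.98, a change of 3.57 ± 0.25 (adjusted p over all probe sets 6.04e-08, where 5.72% of them were called). DHT with 1 µM enzalutamide gave 10.42, 9.30 and 9.30, and DHT with 10 µM gave 8.68, 8.44 and 8.70. The share of the DHT change kept was 56.4 ± 8.2% at 1 µM and 16.2 ± 7.2% at 10 µM. The step from 1 to 10 µM beside DHT was -1.07 on this probe set and did not pass the test (adjusted p = 0.352).

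Probe set 204560_at lay far below the brightness limit in vehicle, at 2.93, 3.12 and 2.26, and reached 10.66, 8.72 and 10.67 with DHT. The array at 8.72 was DHT replicate 2, a high-ratio array. DHT with 1 µM enzalutamide gave 8.51, 7.50 and 6.62, and DHT with 10 µM gave 3.28, 3.12 and 3.57, within the range of the arrays without DHT. The size of a change from so dim a level is uncertain, and no fold is given. Probe set 1570131_at did not follow the others, with a DHT change of -0.37 ± 0.39 (adjusted p = 0.746).

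Both bright FKBP5 probe sets differed in direction with 1 µM enzalutamide alone. The 3 arrays on 224856_at read 7.75, 7.71 and 7.54, all below vehicle (change -0.62 ± 0.25, adjusted p over all probe sets 0.261), whereas those on 224840_at were all slightly above it. With 10 µM alone the arrays on 224856_at read 8.11, 8.09 and 7.88, also all below vehicle. Those on 224840_at overlapped vehicle at 10 µM. In the authors' deposited table of comparisons, 3 FKBP5 probe sets and BAG1 211475_s_at are listed among the 28. The authors' deposited table marks all 4 for DHT against vehicle, where it marks 4.65% of all probe sets. It marks 3, all of FKBP5, for DHT with 10 µM against DHT (2.8% of all in the authors' deposited table), and FKBP5 224856_at alone for 1 µM enzalutamide against vehicle (0.37%). For the dose step beside DHT, called here on 224840_at, the authors' deposited table marks 0 member probe sets and 0 of all. For DHT beside 10 µM, not called here, the authors' deposited table marks FKBP5 224840_at and 224856_at (1.72% of all).

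Across the 18 arrays, the genes whose level followed FKBP5 most closely were MALT1 (Pearson r = 0.986), ACSL3 (0.985), C1orf21 (0.983), SLC39A10 (0.979), RHOU (0.976) and ELL2 (0.976). These values describe arrays of 6 shared treatments and were chosen for their size, so they carry no test. In MALT1, a scaffold protein with protease activity, the group means ran from 8.92 in vehicle to 10.63 with DHT, 9.81 with DHT and 1 µM and 9.23 with DHT and 10 µM. ACSL3, which activates fatty acids, stood at 11.76, 13.24, 12.55 and 12.07 in the same groups. Among the other 9 members r with FKBP5 lay between -0.172 (HSP90AB1) and 0.538 (FKBP4).

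Without enzalutamide, DHT raised 2 of the 10 members, FKBP5 and FKBP4, and lowered 0, while 16.1% of all tested genes were called in either direction. FKBP4 on 200895_s_at read 11.86, 11.60 and 11.55 in vehicle and 11.99, 12.01 and 12.04 with DHT. The groups did not overlap, and the change was 0.34 ± 0.11 (adjusted p = 0.0335). This call rested on single arrays and settings: the adjusted p was 0.125 without vehicle replicate 2 and 0.145 without vehicle replicate 3, 0.0587 to 0.0841 without one of the DHT arrays, and 0.364 with the mean of both FKBP4 probe sets. The second probe set, 200894_s_at, changed by 0.08 ± 0.20 and read low on DHT replicate 2 (10.17 against 10.68 and 10.58).

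The HSP90 genes showed no call for DHT against vehicle. HSP90AA1 on 214328_s_at read 14.35, 14.42 and 14.37 in vehicle and 14.28, 14.42 and 14.42 with DHT, overlapping groups with a change of -0.01 (95% interval -0.21 to 0.19, adjusted p = 0.975). HSP90AB1 on 200064_at read 13.73, 13.82 and 13.75 in vehicle and 13.57, 13.29 and 13.53 with DHT. The DHT arrays were all lower, with a change of -0.30 ± 0.14 that did not pass the test (adjusted p = 0.169). The lowest of them was replicate 2, a high-ratio array.

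The remaining 6 members were likewise not called for DHT against vehicle. PTGES3 changed by 0.16 ± 0.10 (adjusted p = 0.333), STIP1 by -0.16 ± 0.18 (0.644), HSPA8 by 0.05 ± 0.07 (0.75), DNAJB1 by 0.12 ± 0.12 (0.595) and STUB1 by 0.18 ± 0.12 (0.35). BAG1 on 211475_s_at read 10.44, 10.39 and 10.42 in vehicle and 10.69, 10.63 and 10.55 with DHT. Its DHT arrays were all higher, and the change of 0.21 ± 0.08 did not pass the test (adjusted p = 0.1). With the mean of both BAG1 probe sets the change was 0.35 and passed it (adjusted p = 0.0151), but the second probe set, 202387_at, was at 10.50 on DHT replicate 2 against 9.76 and 9.76 on the other DHT arrays.

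**Figure D2:**
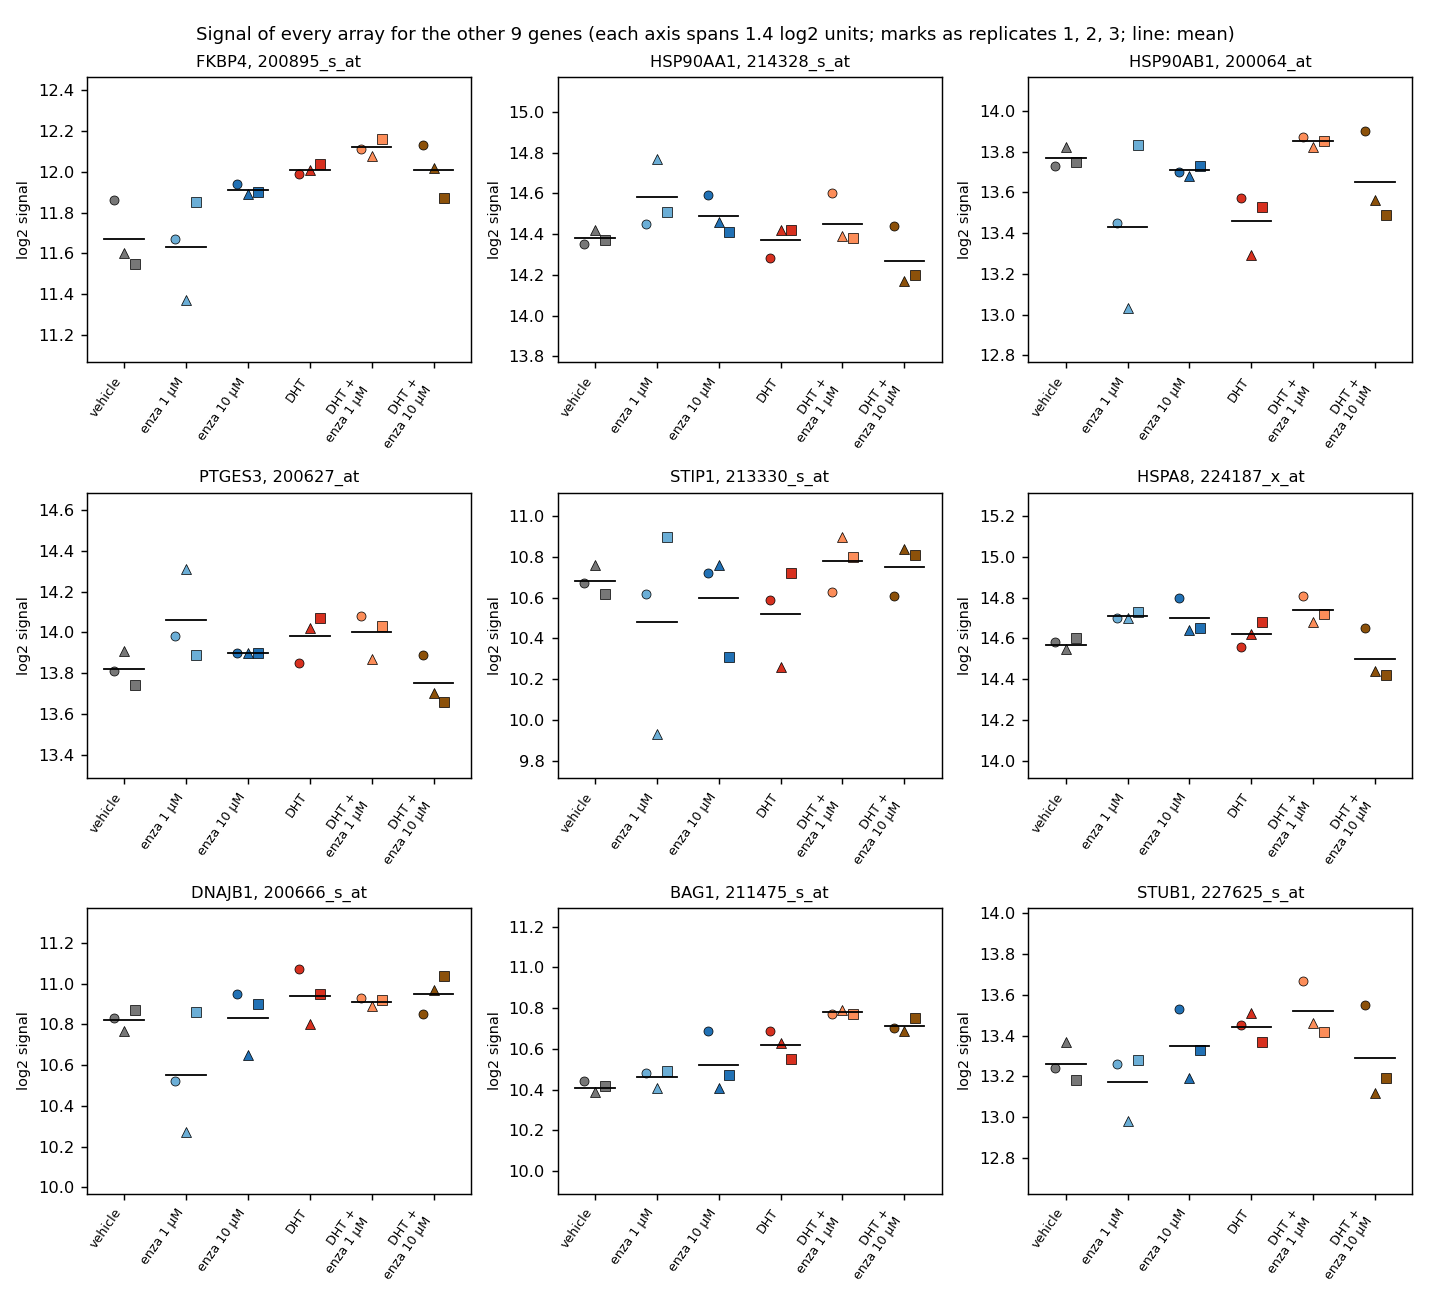
Log2 signal of the tested probe set of the 9 other members on every array, by group, with replicates 1, 2 and 3 as circle, triangle and square and means as lines. Each axis covers the same span, and FKBP4, HSP90AB1, STIP1, DNAJB1 and STUB1 have their lowest array in replicate 2 of enzalutamide 1 µM.

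Enzalutamide alone called 0 of the 10 members by limma at 1 µM, where 6.84% of all genes were called, and 4 members had an unadjusted p under 0.05. At 10 µM it called 0, where 0.815% of all genes were called, and 1 member had an unadjusted p under 0.05. Between both doses without DHT 0 members were called, against 0.0235% of all genes, with 2 at an unadjusted p under 0.05. These percentages are at the adjusted threshold, and the share of all genes at an unadjusted p under 0.05 was not counted. DNAJB1 on 200666_s_at read 10.52, 10.27 and 10.86 at 1 µM against 10.83, 10.77 and 10.87 in vehicle, overlapping groups with a change of -0.28 ± 0.12 (adjusted p = 0.17). Its lowest array was again replicate 2. HSP90AB1 read 13.45, 13.03 and 13.83 at 1 µM (change -0.33 ± 0.14, adjusted p = 0.152). Leaving out replicate 3, which keeps the high-ratio array, gave 3 calls at 1 µM against vehicle, HSP90AB1, PTGES3 and DNAJB1. The number of all genes called in this comparison also moved widely with single arrays left out, as given further below. These 3 calls therefore cannot be read as particular to the members.

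Beside DHT, enzalutamide changed 1 member at either dose, FKBP5. At 1 µM 3.5% of all genes were called, at 10 µM 8.42%, and between the doses 0.0706%. The other 9 members' changes lay between -0.03 (DNAJB1) and 0.38 (HSP90AB1, adjusted p = 0.17) at 1 µM, and between -0.23 (PTGES3, adjusted p = 0.18) and 0.23 (STIP1, adjusted p = 0.504) at 10 µM. HSPA8 read 14.81, 14.68 and 14.72 with DHT and 1 µM and 14.65, 14.44 and 14.42 with DHT and 10 µM. The groups did not overlap, and the change of -0.23 ± 0.07 did not pass the test (adjusted p = 0.363).

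The effect of DHT beside 1 µM enzalutamide was called in 6 of the 10 members, all higher, where 18.9% of all genes were called and 11% were called higher. Over all genes 58.4% of the calls were higher, and 88.9% with arrays centred on their medians. Besides FKBP5 these were FKBP4 (0.49 ± 0.11, adjusted p = 0.00421), HSP90AB1 (0.41 ± 0.14, 0.0479), DNAJB1 (0.37 ± 0.12, 0.0425), STUB1 (0.35 ± 0.12, 0.0456) and BAG1 (0.32 ± 0.08, 0.0123). The median over the 10 members was 0.33, against -0.01 over all genes tested. In the fit without both high-ratio arrays 3 members were called, FKBP5, FKBP4 and BAG1. The share of all genes called in that fit is not given here. HSP90AB1 then changed by 0.21 (adjusted p = 0.206), DNAJB1 by 0.23 (0.173) and STUB1 by 0.25 (0.176).

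BAG1, on 211475_s_at, read 10.48, 10.41 and 10.49 with 1 µM enzalutamide and 10.77, 10.79 and 10.77 with DHT added, with no overlap. FKBP4 read 11.67, 11.37 and 11.85 with the drug and 12.11, 12.08 and 12.16 with DHT added, also without overlap, and the lowest array was replicate 2. Its second probe set, 200894_s_at, read 10.36, 9.68 and 10.78 with the drug and 10.91, 10.95 and 11.03 with DHT added, a change of 0.69 ± 0.20 (adjusted p over all probe sets 0.0485, where 6% of them were called). With both high-ratio arrays left out this change was 0.39 and was not called (adjusted p over all probe sets 0.0831). For DNAJB1 the groups were 10.52, 10.27 and 10.86 against 10.93, 10.89 and 10.92, and for STUB1 13.26, 12.98 and 13.28 against 13.67, 13.46 and 13.42. In both genes the gap was small and replicate 2 was the lowest array with the drug alone. HSP90AB1 on 200064_at read 13.45, 13.03 and 13.83 with the drug and 13.87, 13.82 and 13.85 with DHT added, which overlap.

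Beside 10 µM enzalutamide DHT called 0 of the 10 members by limma, against 2.81% of all genes, and 4 had an unadjusted p under 0.05. The share of all genes at that unadjusted threshold was not counted. FKBP4 changed by 0.10 ± 0.11 (adjusted p = 0.746), BAG1 by 0.19 ± 0.08 (0.257), HSPA8 by -0.19 ± 0.07 (0.176) and HSP90AA1 by -0.22 ± 0.10 (0.263). For HSPA8 the arrays read 14.80, 14.64 and 14.65 with the drug and 14.65, 14.44 and 14.42 with DHT added, which overlap narrowly.

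**Figure D3:**
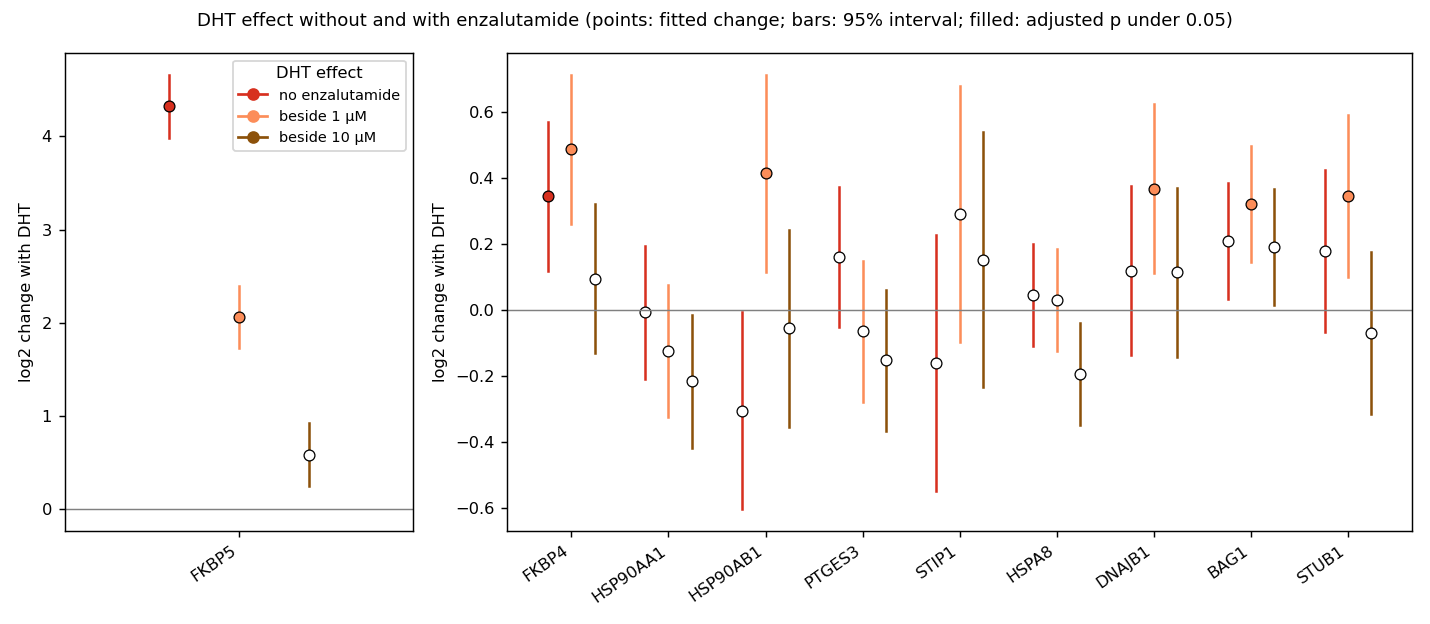
Fitted log2 change with DHT for the 10 members without enzalutamide, beside 1 µM and beside 10 µM, with 95% intervals, and filled points where the adjusted p is under 0.05. FKBP5, on its own axis, steps down from 4.32 to 2.06 and 0.58, whereas the 9 other members all lie between -0.30 and 0.49.

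The test of whether enzalutamide altered the DHT effect called 2 members at 1 µM, where 5.83% of all genes were called, and 1 member at 10 µM, where 5% were. FKBP5 was lower at both doses. HSP90AB1 at 1 µM had an interaction of 0.72 ± 0.20 (adjusted p = 0.0417), from a DHT change of -0.30 without the drug and 0.41 beside it. In the fit without both high-ratio arrays it was 0.43 and did not pass the test (adjusted p = 0.131). At 10 µM the interaction of HSP90AB1 was 0.25 ± 0.20 (adjusted p = 0.547).

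The values behind this differed strongly between probe sets of HSP90AB1. On 1557910_at DHT replicate 2 read 11.47 and replicate 2 of 1 µM enzalutamide 10.44, whereas the other arrays of these groups read 13.61 and 13.96, and 13.47 and 13.90. On 214359_s_at the same arrays read 12.39 and 11.81, and on 200064_at, the tested probe set, 13.29 and 13.03. STIP1 212009_s_at read 8.74 and 8.63 on them against 10.33 to 10.94 on the other 16 arrays. These arrays thus gave the lowest values of both genes on each of these probe sets, and the part of RNA quality in them was not tested.

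Across the 28 probe sets, DHT replicate 2 lay more than 1 log2 unit below the mean of its group mates in 4 and enzalutamide 1 µM replicate 2 in 3. No other array had more than 1 such probe set. On them HSP90AA1 214328_s_at differed from its group mates by 0.07 and 0.29, FKBP5 224840_at by -0.01 and 0.05, and HSPA8 224187_x_at by -0.01 and -0.01. BAG1 211475_s_at differed by 0.02 and -0.07. Some other probe sets of these genes moved more. HSP90AA1 211968_s_at differed by -0.43 and -0.60, FKBP5 204560_at by -1.94 and -0.78, and FKBP5 224856_at by -0.80 and 0.06. HSPA8 210338_s_at read 13.67 on DHT replicate 2 against 14.18 and 14.35 on its group mates. BAG1 202387_at read 10.50 there against 9.76 and 9.76. The small differences thus hold for single probe sets, not for whole genes.

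**Figure D4:**
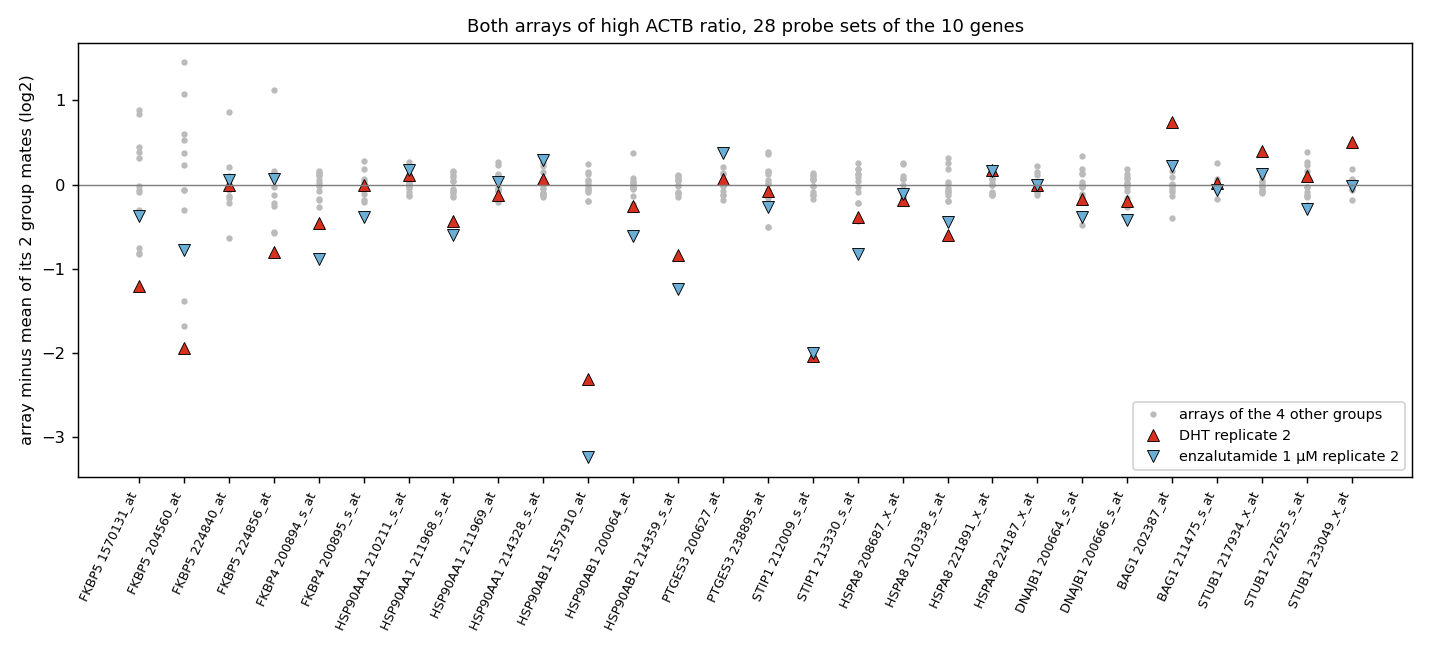
Log2 difference between an array and the mean of its 2 group mates, for each of the 28 probe sets, with DHT replicate 2 and enzalutamide 1 µM replicate 2 as triangles and the arrays of the 4 other groups as grey points. The triangles fall furthest at HSP90AB1 1557910_at (-2.31 and -3.24) and STIP1 212009_s_at, and stay near 0 at FKBP5 224840_at.

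Further genes of the same machinery were counted by list, to be read against the 16.1% of all genes called with DHT. Of 17 other HSP90 paralogs and co-chaperones tested, DHT raised 1, AHSA1 (0.32 ± 0.08, adjusted p = 0.0109), which stimulates the ATPase of HSP90, and lowered 0. The median was 0.17 against -0.03 over all genes. AHSA1 means were 12.42 in vehicle and 12.74 with DHT, and 12.71 and 12.53 with DHT and 1 or 10 µM enzalutamide. With both high-ratio arrays left out AHSA1 (0.22, adjusted p = 0.0363) and TOMM34 (0.30, 0.0473) were called. With arrays centred on their medians TOMM34 was called (0.37, 0.0471) and AHSA1 was not (0.065).

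Of 26 tested genes of the HSP70 system and its J-domain and BAG partners, DHT raised 3 and lowered 3, with a median of 0.01, where 16.1% of all genes were called. DNAJB9, a J-domain protein of the endoplasmic reticulum, rose by 1.51 ± 0.10 (adjusted p = 2.35e-09), from a mean of 10.62 in vehicle to 12.13. It stood at 11.35 with DHT and 1 µM and 10.93 with DHT and 10 µM. HSPA13, a microsomal HSP70-like protein, rose by 0.56 ± 0.10 (0.00063) and DNAJA3, of the mitochondria, by 0.28 ± 0.09 (0.0446).

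The J-domain gene DNAJB4 fell by 1.11 ± 0.10 with DHT (adjusted p = 1.31e-07), HSPA4L, an HSP110 chaperone, by 0.90 ± 0.20 (0.00378), and BAG4, a BAG-family regulator of HSP70, by 0.40 ± 0.09 (0.00334). Beside DHT, 10 µM enzalutamide raised DNAJB4 by 0.55 and HSPA4L by 0.78 and lowered DNAJB9 by 1.20 (log2 change -1.20), HSPA13 (-0.57) and HSPA5 (-0.29). In that comparison 8.42% of all genes were called. With arrays centred on their medians the calls for BAG4 (adjusted p = 0.168) and DNAJA3 (0.0909) with DHT, and for HSPA5 (0.172) with 10 µM beside DHT, were lost. With both high-ratio arrays left out the DHT call for DNAJA3 was lost (adjusted p = 0.0713). So were those for HSPA4L (0.0809) and HSPA5 (0.055) with 10 µM beside DHT, while the other calls of both comparisons held. Both further DNAJB9 probe sets rose with DHT, by 1.39 and 1.67.

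Heat shock factors and other heat-inducible chaperones had 10 tested genes, of which DHT raised 2 and lowered 2 (16.1% of all genes called), with a median of 0.13. HSPE1, the mitochondrial HSP10, rose by 0.38 ± 0.08 (adjusted p = 0.0021) and TCP1, a subunit of the CCT chaperonin, by 0.30 ± 0.09 (0.0316). The small heat shock proteins HSPB8 and HSPB1 fell, by 0.87 ± 0.21 (0.00632) and 0.30 ± 0.10 (0.0403). These 4 calls held with both high-ratio arrays left out. With arrays centred on their medians TCP1 and HSPB1 were not called (adjusted p = 0.0998 and 0.457).

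Among the 11 other FK506-binding proteins, all tested, DHT raised 2 and lowered 1 (16.1% of all genes called), with a median of -0.06. FKBP11 and FKBP2, both of the secretory pathway, rose by 0.82 ± 0.15 (adjusted p = 0.000444) and 0.50 ± 0.12 (0.00821), and FKBP9, of the endoplasmic reticulum, fell by 0.52 ± 0.14 (0.0112). FKBP11 stood at 11.09 in vehicle, 11.92 with DHT, 11.71 with DHT and 1 µM and 11.41 with DHT and 10 µM. FKBP1A, which gives FK506 its immunosuppressive target, was lower with 1 µM enzalutamide alone (-0.53 ± 0.12, adjusted p = 0.018). With arrays centred on their medians FKBP9 (-0.43, adjusted p = 0.14) and FKBP1A (-0.54, 0.0952) were not called. With DHT beside 1 µM enzalutamide, where 18.9% of all genes were called, FKBP1A rose by 0.56 ± 0.12 (adjusted p = 0.0037). That call held with centred arrays (0.73, 0.00468) and with both high-ratio arrays left out (0.50, 0.00831).

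Of 6 steroid receptor genes 4 were bright enough to be tested, and DHT, with 16.1% of all genes called, lowered 1, NR3C2, the mineralocorticoid receptor (-0.69 ± 0.14, adjusted p = 0.00175). NR3C1, the glucocorticoid receptor, changed by -0.09 ± 0.22 (95% interval -0.56 to 0.37, adjusted p = 0.841).

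**Figure D5:**
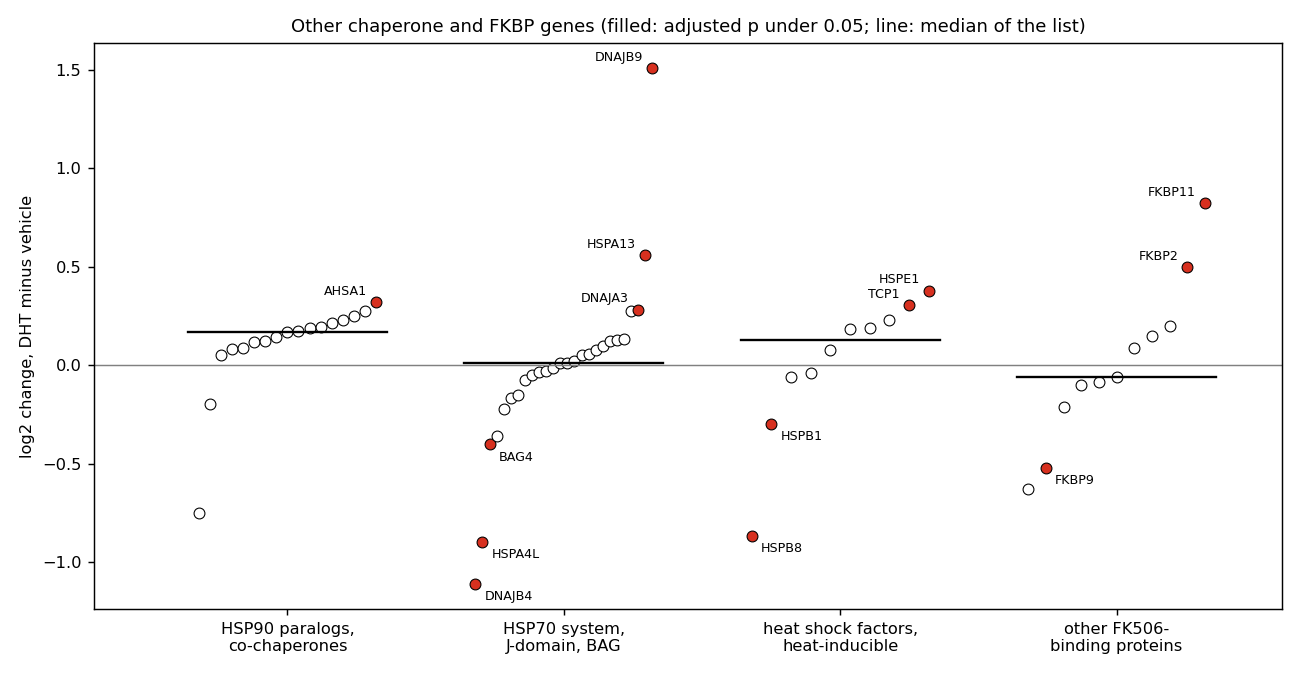
Log2 change with DHT of every tested gene in the 4 further lists of chaperones and FK506-binding proteins, with filled points where the adjusted p is under 0.05 and a line at each list's median. DNAJB9 is the highest point at 1.51 and DNAJB4 the lowest at -1.11, while most genes of the lists lie near 0.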

How the data were processed

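Levels were measured on 18 single-colour arrays, 3 for each of 6 groups taken from the labels. The deposited array values are log2 signals. MAS5 is named in the submitters' processing notes, without a version, and neither array model nor further steps are named in the labels or headers. After undoing the log, the 2% trimmed mean was 500.0 to 500.1 on every array. The authors' deposited tables also hold an ANOVA p-value per probe set, not used here, and significance flags for pairs of groups, an other unit (0 or 1) per the file headers, which were copied only where named.

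Control probe sets (62 of 54675) were left out. Symbols were updated with a RefSeq table of GRCh38.p14, 38264 probe sets through an accession. A gene's brightest probe set, if its mean reached 6.98, stood for it (12756 genes). The 6 group means were fitted with limma 3.58.1 under R 4.3.3 (12 residual degrees of freedom, eBayes with an intensity trend). P-values are two-sided and Benjamini-Hochberg adjusted over all genes of a comparison, and called means under 0.05. Single probe sets came from a fit of all 54613. The fitting script was tested on simulated data. Intervals are 95% intervals of the fit. The number of arrays limits the precision.

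The members and the gene lists were chosen with earlier results of these data known. Named were all 10 members, of each other list up to 4 called genes per comparison and direction with the largest change, NR3C1, and the 6 genes with the highest r with FKBP5. Not every comparison in which such a gene was called is described. A further gene of that rule is not reported here. Members' own alternatives were brightness filters, the mean of a gene's probe sets, centring, quantile normalization, no trend, a replicate block, and leaving out single arrays or both high-ratio arrays. For the other lists, centring and leaving out those 2 arrays were chosen after seeing the data, as was leaving them out for single member probe sets. Python 3.11.15, numpy 2.4.6, pandas 2.3.3 and matplotlib 3.10.9 made the tables and plots.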

Additional observations from a re-analysis of the deposited data

Results flagged for a closer look

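The DHT effect on FKBP5 differed between cells with and without enzalutamide, by the interaction in limma. At 1 µM the interaction was -2.26 on the log2 scale (adjusted p = 2.02e-05), and at 10 µM it was -3.74 (adjusted p = 2.44e-08). All 3 arrays of each group with DHT and the drug lay below all 3 with DHT alone.

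For HSP90AB1 the DHT effect differed in the other direction at 1 µM, with an interaction of 0.72 (adjusted p = 0.0417). Over 26 alternatives the adjusted p ranged from 0.00273 to 0.135 and 9 of them called it. With both high-ratio arrays left out it was 0.43 (adjusted p = 0.131). Both of these arrays gave the lowest HSP90AB1 value of their group, and the part of RNA quality in it was not tested.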

How the results depend on the processing

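Of 2860 member changes under alternatives, 2770 stayed on their side of the threshold, 76 were no longer called, 14 were newly called and 0 called values turned sign. Most of the 110 changes in the main fit were uncalled, so most of the 2770 were uncalled values that stayed uncalled. They are no measure of how firm the calls were. All 76 lost calls were of members other than FKBP5. Among the 2770, 108 values called under neither setting turned sign. All FKBP5 calls held under every alternative tried, and its uncalled change beside 10 µM enzalutamide (0.58) was called with both high-ratio arrays left out (0.58, adjusted p = 0.0405). Leaving out 1 array gave 0.53 to 0.65 there, called without enzalutamide 1 µM replicate 2 or without replicate 1 or 3 of DHT with 1 µM.

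The number of members called for DHT against vehicle was 2, and 1 with centred arrays or without the intensity trend (1 to 3 without 1 array). Over all genes, 915 were called higher and 501 lower there with centred arrays, against 995 and 1061 in the main fit. For the DHT effect beside 1 µM the number of members called was 6, and 3 without a brightness filter, without the trend or without both high-ratio arrays (3 to 7 without 1 array). For the interaction at 1 µM it was 2, and 1 without a brightness filter, with the mean of probe sets, with centred arrays, without the trend or without both high-ratio arrays (1 to 2 without 1 array). For the DHT effect beside 10 µM it was 0, and 1 without both high-ratio arrays (0 to 1 without 1 array). Leaving out 1 array gave 0 to 3 for 1 µM enzalutamide against vehicle, 0 to 2 between doses without DHT and 1 to 2 for 1 µM beside DHT. Apart from settings that remove arrays or probe sets, the cause was not tested. Where no count over all genes is given for a fit, a change in the member count cannot be told from one over all genes.

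Centring arrays shifts every change by 0.10 for DHT against vehicle, 0.17 for the DHT effect beside 1 µM and -0.13 between doses beside DHT, and by less than 0.10 elsewhere. Over all genes, the calls with centred arrays were 333 against 872 (1 µM against vehicle), 4 against 104 (10 µM against vehicle), 5 against 3 (doses without DHT), 238 against 446 and 574 against 1074 (1 and 10 µM beside DHT), 123 against 359 (DHT beside 10 µM), and 403 against 744 and 244 against 638 (interactions). Without both high-ratio arrays they were 425, 368 and 0 in the first 3 of these, 31 against 9 between doses beside DHT, 859 for DHT beside 10 µM and 471 for the interaction at 1 µM. For 10 µM against vehicle they were 49 without a brightness filter, 43 with the mean of probe sets and 41 without the trend. Without 1 array they ran from 123 to 1780 for 1 µM and from 1 to 172 for 10 µM against vehicle, from 0 to 421 and from 1 to 23 between doses without and with DHT, and from 165 to 621 for DHT beside 10 µM. They ran from 309 to 1772 and from 393 to 852 for the interactions, from 269 to 600 and from 673 to 1384 for 1 and 10 µM beside DHT, and from 1474 to 3160 for DHT beside 1 µM.

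No pairing by replicate number was seen, although this check cannot exclude one, and both high-ratio arrays carry number 2. Over 45 pairs of equal number the deviations from group means correlated with r of -0.19 to 0.42, 8 of them over 0.1. Over 90 pairs of different number r was -0.37 to 0.28, 15 of them over 0.1. Of the 18 arrays 6 were closest to their own number. With the replicate number as a block, each of the 110 member changes stayed on its side of the threshold, and the FKBP5 change with DHT was again 4.32.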

Other observations

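HSPA5, the HSP70 chaperone of the endoplasmic reticulum also called BiP, was not called for DHT against vehicle but was lower with DHT beside 10 µM enzalutamide (-0.46 ± 0.08, adjusted p = 0.00463). The group means were 13.60 in vehicle, 13.61 with DHT, 13.77 with 10 µM enzalutamide and 13.31 with both, and the interaction at 10 µM was -0.46 ± 0.12 (adjusted p = 0.0291). With both high-ratio arrays left out both were called, and with centred arrays neither was (adjusted p = 0.16 and 0.203). A second HSPA5 probe set, 230031_at, changed by 0.02 ± 0.12 in the same comparison (adjusted p = 0.988).

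CHORDC1, an HSP90 co-chaperone, rose with 1 µM enzalutamide alone (0.41 ± 0.09, adjusted p = 0.016) and was called again with both high-ratio arrays left out (0.32, adjusted p = 0.0369), but not with centred arrays (0.39, 0.146). PPID, the cyclophilin that binds HSP90, rose by 0.62 ± 0.16 in the same comparison (adjusted p = 0.0298) and was not called without them (0.46, adjusted p = 0.108). Its other probe sets changed by 0.34 (204186_s_at) and -0.14 (228469_at), and neither was called.

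With 1 µM enzalutamide alone, BAG5 (-0.37, adjusted p = 0.0235) and DNAJB2 (-0.85, 0.0485) were lower and HSPE1 was higher (0.29, 0.0345). None of these 3 calls held with both high-ratio arrays left out, where the adjusted p were 0.0724, 0.202 and 0.114. With DHT beside 1 µM enzalutamide, DNAJB9 rose by 0.46 (adjusted p = 0.00454), BAG5 by 0.44 (0.00292), BAG3 by 0.35 (0.0171) and HSPBP1 by 1.02 (0.0114). DNAJB4 fell by 0.60 (0.00046) and HSPA4L by 0.62 (0.0385), and SUGT1 changed by -0.36 (0.0266). With both high-ratio arrays left out the HSPBP1 change was 0.54 (0.019), and with centred arrays HSPA4L (-0.45, 0.0986) and SUGT1 (-0.19, 0.408) were not called. TCP1 fell by 0.35 with 10 µM enzalutamide beside DHT (0.0232) and was not called there with centred arrays (-0.42, 0.13).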
